A study of Homo sapiens with 6 samples.

Results

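SMARCA4 binding was examined at the genes of the cyclin-dependent kinase (CDK) inhibitors and at the 9p21 locus in K562 cells, an established human chronic myelogenous leukaemia line. The members were the INK4 genes CDKN2A, CDKN2B, CDKN2C and CDKN2D, the CIP/KIP genes CDKN1A, CDKN1B and CDKN1C, the CDKN2A neighbour MTAP, and RB1, whose protein the CDKs inactivate. All peaks in a member gene or within 10 kb of it were taken, together with all peaks of a 15 Mb window on chromosome arm 9p around CDKN2A (hg19, chr9:19000000-34000000). This gave 70 of the 28265 listed peaks, 24 of them at the 9 member genes and 46 in the 9p window, with none in both.

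SMARCA4 is an ATPase of the SWI/SNF complex, which moves nucleosomes, and ChIP-seq sequences the DNA that an antibody against a protein recovers from crosslinked chromatin. The series holds 3 SMARCA4 ChIP libraries and 3 input libraries, the latter made from chromatin with no antibody step, all of untreated K562 cells crosslinked with disuccinimidyl glutarate and then formaldehyde. The description label of the ChIP samples reads G4 ChIP-seq, whereas their titles and antibody labels name SMARCA4, by which they were taken. The paper treats the ChIP libraries as biological replicates, whereas the design text deposited with the series names them technical and mentions 1 input. The authors pooled the ChIP libraries into 1 list of regions seen in at least 2 of 3 replicates. The list carries a start and an end per peak but no height, read number or value per replicate. No spread between replicates could thus be given for a peak. Marker genes were also looked at. A peak within 1 kb of a coding start was present at all 8 erythroid and megakaryocytic markers, among them GATA1, KLF1, NFE2 and HBG2. None of 6 markers of other cell types had one, although PAX5 and EBF1 had 1 peak each farther away. Of all coding genes 46.8% had such a peak. The marker lists were chosen with earlier results of these data known, so they are no independent check of the cell line.

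CDK inhibitors halt the cell cycle. INK4 proteins block CDK4 and CDK6, and CIP/KIP proteins bind a wider range of cyclin-CDK complexes, including those of CDK2; with the kinases held back, the RB1 protein stays on E2F factors and keeps S phase genes silent. K562 cells are known to have lost both copies of CDKN2A, together with neighbouring DNA of 9p21, while the other inhibitor genes lie on other chromosomes.

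Guanine runs recurred in the member peaks, and an E2F site was present in 5 of the 24. A G4 motif, the sequence pattern of a 4-stranded DNA structure called a G-quadruplex, was counted on both strands wherever 4 guanine runs, each 3 or longer, stood 1 to 7 bases apart. The first 5 sequences are G4 motifs of the peaks at the starts of the inhibitor genes outside 9p, with every guanine run in capitals. The other 4 hold an E2F or AP-1 motif in capitals with 8 bases on each side.
CDKN1A G4: GGGccccGGGGaGGGcggtcccGGG
CDKN1B G4: GGGGGccgctGGGGaGGGccgagctGGGGG
CDKN1C G4: GGGGGccGGGccgcggcGGGGcGGGG
CDKN2C G4: GGGcggaGGGcGGGGcgtGGG
CDKN2D G4: GGGctGGGGcGGGGcGGGGGG
RB1 E2F: agtgacgtTTTCCCGCggttggac
CDKN2D E2F: cagccttcTTTCCCGCctgccggg
CDKN1A intron E2F: acacaggcTTTCCCGCggagtggg
CDKN1A intron AP-1: caggaaacTGACTCAtcactact
In hg19 the G4 motifs lie at chr6:36646375-36646399 (plus strand), chr12:12869831-12869860 (plus), chr11:2907137-2907162 (minus), chr1:51434311-51434331 (plus) and chr19:10679353-10679373 (minus), in the order given. The E2F sites lie at chr13:48877854-48877877 (plus), chr19:10679949-10679972 (minus) and chr6:36648419-36648442 (plus), and the AP-1 site at chr6:36648302-36648324 (plus). The same 8 bases thus stood in the start peaks of RB1 and CDKN2D and in the intronic peak of CDKN1A. The E2F motifs in the peaks at the starts of APOLD1 and KRI1 had other letters and are not shown.

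Peaks were found at 6 of the 9 member genes and at none of the 3 on 9p. Of 20098 coding genes on the autosomes and the X chromosome, 63.2% had at least 1 peak in the gene or 10 kb each side, and 46.8% had one within 1 kb of a coding start. All 6 members outside 9p had a peak at a start, and in each of them a peak covered a start of the gene itself. Starts are rich in CpG where the observed to expected CpG ratio over 1 kb each side is at least 0.6; 65% of such genes had a peak at a start, against 23.7% of CpG-poor ones. All 9 members fell in the CpG-rich class, the 3 on 9p included, so the presence of a start peak at 6 of 9 members (66.7%) was close to the share of their class. At a stricter ratio of 0.7, CDKN2A, MTAP and CDKN1A left the class, and 5 of the 6 members in it had a start peak, against 67.7% of such genes.

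**Figure D1:**
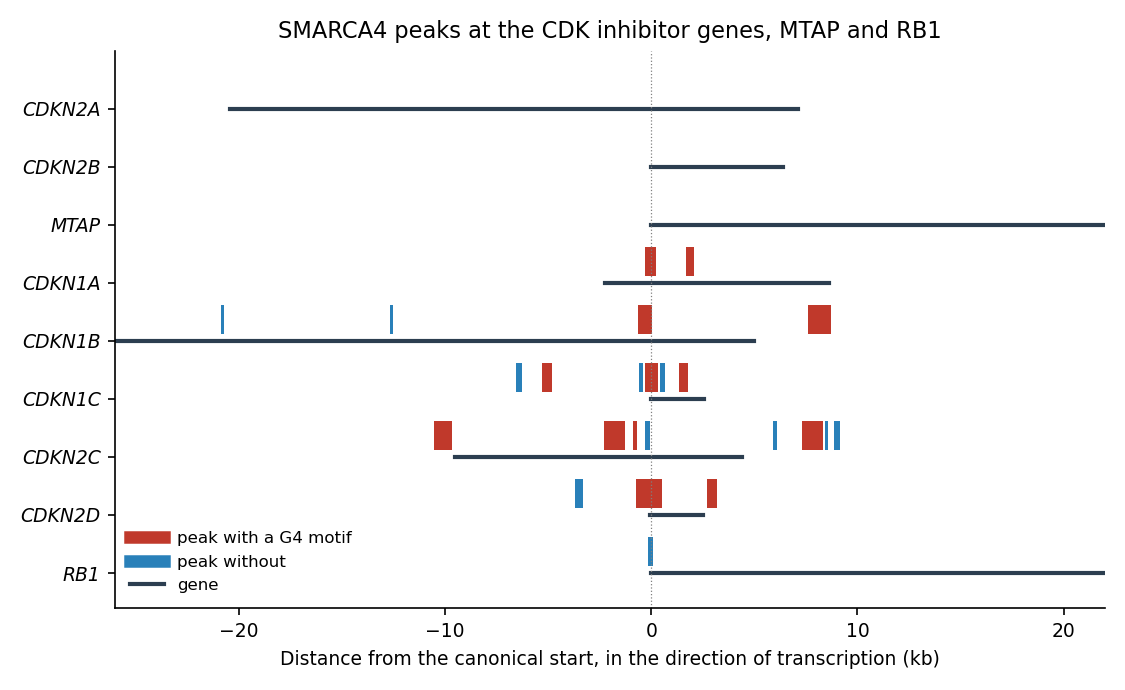
SMARCA4 peaks (boxes, red with and blue without a G4 motif) at the 9 member genes, by distance in kb from the canonical start in the direction of transcription; dark lines are the genes, cut at the edges for CDKN1B, MTAP and RB1. CDKN2A, CDKN2B and MTAP have no box, while the other 6 genes have 1 to 8, at least 1 of them within 1 kb of the start.

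Among the CIP/KIP genes, CDKN1A, which encodes p21, an inhibitor induced by DNA damage, had 2 peaks. One of 542 bp covered its canonical start (chr6:36646173-36646714), and one of 364 bp lay in intron 1 (chr6:36648188-36648551), with 66.5% GC, a G4 motif, the AP-1 site and the E2F site shown above. The intronic peak held the only AP-1 motif (TGACTCA or TGAGTCA) of the 24 member peaks.

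CDKN1B, which encodes p27, had 4 peaks of very different size. The peak of 653 bp at the canonical start (chr12:12869669-12870321) reached just past it, and the widest, of 1137 bp (chr12:12877905-12879041), covered the start of the neighbour APOLD1. The other 2 were narrow, with 135 bp at 304 bp from a coding start of GPR19 and 152 bp from the start of a CDKN1B transcript, and 35 bp at 8503 bp from any coding start. The locus of CDKN1B therefore shares its peaks with 2 neighbours, and only the first of the 4 was at the canonical CDKN1B start.

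CDKN1C, the imprinted gene of p57, had 6 peaks, more than 93.8% of coding genes had, although the gene spans 2563 bp. A peak of 639 bp covered the start (chr11:2906692-2907330), flanked by one of 219 bp upstream and one of 277 bp centred in coding exon 2. Another, of 401 bp, was centred in intron 2. The last 2 lay 4793 and 6288 bp upstream, with 519 and 288 bp. All 6 were GC-rich, from 68.1% to 78.5%, and 3 held a G4 motif well inside the peak.

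Of the INK4 genes outside 9p, CDKN2C, which encodes p18, had 8 peaks, more than 97.5% of coding genes had. Its count depended on how peaks were taken, with 5 peaks of at least 200 bp, 4 after merging peaks at most 500 bp apart and 3 in the gene alone, where CDKN1C had 6, 4 and 3. They formed 3 groups: 1 of 914 bp at the start of the neighbour FAF1, 3 around the CDKN2C starts, and 4 beyond the end of the gene. The widest of the start group (1014 bp, chr1:51433639-51434652) covered an upstream coding start and held 3 G4 motifs, whereas the canonical start itself was 75 bp from a peak of 230 bp. Beyond the gene, the widest of its peaks (1017 bp, chr1:51443236-51444252) had 70.3% GC and 2 G4 motifs at 7319 bp from the nearest coding start. Its 3 narrower companions, of 188, 108 and 263 bp, had only 35.4% to 37.0% GC, and 2 of them held a GATA motif. The downstream group therefore put a GC-rich peak as wide as the promoter peak beside narrow AT-rich ones.

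CDKN2D, which encodes p19, had 3 peaks. The one at its start was the widest of all member peaks (1275 bp, chr19:10679139-10680413) and held 4 G4 motifs, the E2F site shown above and a GATA motif. The second, of 509 bp, covered the start of the neighbour KRI1, and the last, of 372 bp, lay 3232 bp upstream of CDKN2D.

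RB1 stood at the other end of the range. This gene of 295693 bp had a single peak of 208 bp (chr13:48877749-48877956) over its start, with the E2F site at -22 bp from the canonical start and no G4 motif inside, although 2 such motifs lay within 1 kb. After this peak no other followed for 322202 bp, past the end of the gene, and the nearest one on the other side was 208275 bp away. LPAR6, which is nested in RB1, thus had no peak at its start either.

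At the edge of the rule, the member peak farthest from its gene was one of CDKN1C, at 6288 bp. The nearest peak left out was one of CDKN2D, at 12017 bp from the gene, and the nearest ones left out for CDKN1A, CDKN1C, RB1, CDKN2C and CDKN1B were 15414, 15189, 26587, 30973 and 35271 bp from the gene. No member count would thus change between margins of 7 and 12 kb.

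Position and base composition set the 24 member peaks apart into a few kinds. Within 1 kb of a coding start were 14, of which 10 belonged to a member and 4 to a neighbour, and 10 lay farther away. Their median width was 368 bp, the same as that of all peaks, and 5 were under 200 bp. The median of the 14 at starts was 525.5 bp, while that of all 11797 peaks at coding starts was 421 bp. The median GC content of the 24 was 67.3%, against 53.2% for all peaks. The 10 farther peaks split evenly, 5 having at least 60% GC and 5 less.

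**Figure D2:**
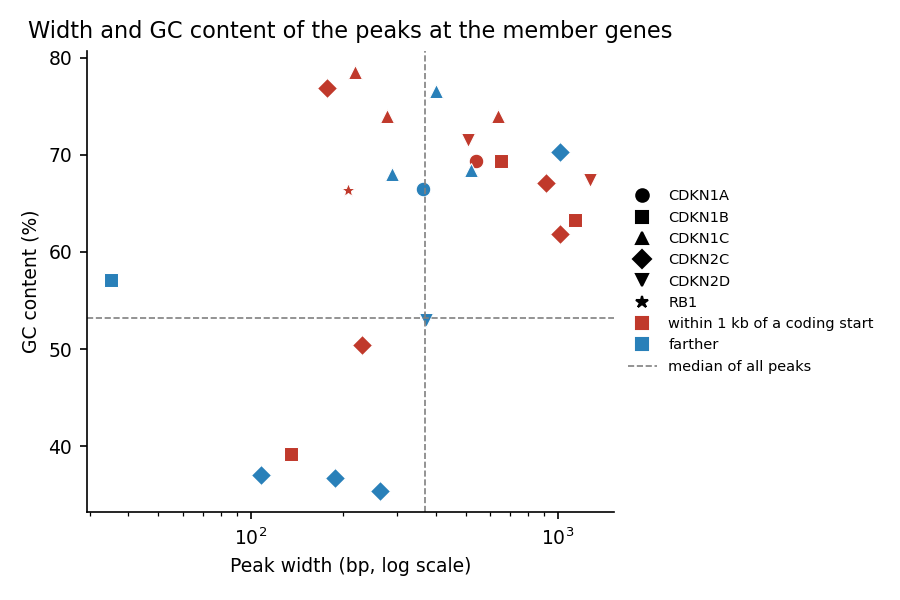
Width (bp, log scale) and GC content (%) of the 24 member peaks, by gene (symbol) and by distance to the nearest coding start (red within 1 kb, blue farther); dashed lines are the medians of all peaks, 368 bp and 53.2%. Most points lie above the GC median, and the 4 points under 40% GC are narrow peaks, 3 of CDKN2C and 1 of CDKN1B.

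Over the whole peak, the member peaks held a G4 or E2F motif more often and a GATA motif less often than peaks in general. A G4 motif was present in 13 of 24 member peaks (54.2%), against 23.4% of all peaks. GATA motifs (the letters GATA after A or T and before A or G), the sites of the GATA factors that define erythroid cells, were present in 4 (16.7%), against 51.3% of all peaks, and the AP-1 motif in 1 (4.17%), against 17.3%. An E2F motif (TTTCCCGC, TTTCGCGC, TTTGCCGC or TTTGGCGC) was present in 5 member peaks (20.8%), against 4.04%. These were the peaks at the starts of RB1, CDKN2D, KRI1 and APOLD1 and the one in intron 1 of CDKN1A. An SP/KLF motif (GGGCGG) was present in 14 (58.3%, against 39.3%) and an E-box (CAGCTG) in 7 (29.2%, against 25%). No member peak held an ETS motif (CCGGAAGT) or a CTCF motif, which 3.52% and 3.15% of all peaks held. All motifs were read on both strands, and SP/KLF sites and G4 motifs can share guanine runs.

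Compared only with the 10096 peaks of at least 60% GC, the G4 share of member peaks was 13 of 17 (76.5%), against 51%. The E2F share was 5 of 17 (29.4%), against 7.35%, the GATA share 1 of 17 (5.88%), against 18%, the AP-1 share 1 of 17 as well, against 6.65%, and the SP/KLF share 82.4%, against 79.2%. The E-box was present in 7 of 17 (41.2%), against 26.5%, and the ETS motif in none, against 6.58%. The 17 peaks were wider, with a median of 519 bp against 412 bp, so more sequence was searched in each. In the central 200 bp of the same peaks a G4 motif was present in 4 of 17 (23.5%), against 30.4%, an E2F motif in 3 (17.6%, against 3%), an E-box in 4 (23.5%, against 12.2%) and a GATA motif in none (against 7.06%). Among GC-rich peaks the G4 share of the member peaks was thus above that of all peaks over the whole peak and below it in the centre, while the E2F and E-box shares were higher and the GATA share lower in both, on 17 peaks and with no test. The peaks were not matched on distance to a start. Of the 24 member peaks, 14 lay within 1 kb of a coding start, against 11797 of all 28264. Motif shares of start peaks alone were not computed.

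On 9p, CDKN2A encodes p16 and, from another reading frame, the MDM2 inhibitor ARF; CDKN2B encodes p15, and MTAP salvages methionine. The nearest peak was 1286828 bp from any start of CDKN2A, 1324768 bp from any start of CDKN2B and 1118132 bp from any start of MTAP. CDKN2B-AS1, the long non-coding RNA gene of 133965 bp that overlaps the locus on the opposite strand, had no peak either. All 3 genes had CpG-rich starts, with observed to expected ratios of 0.694 (CDKN2A), 0.838 (CDKN2B) and 0.688 (MTAP). None held a G4 motif within 1 kb of the canonical start, which 68.4% of coding genes did. In the same span KLHL9, DMRTA1 and TUSC1 had 2, 3 and 2 G4 motifs near the start and no peak, while CAAP1, at its edge, had a peak and no such motif. The span was chosen for having no peak and ends at the CAAP1 peak. These cases were therefore fixed by its choice and tell nothing of how motif and peak are related.

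The span without peaks around CDKN2A ran over chr9:20684504-26892318, a length of 6.21 Mb, 1.29 Mb of it on the telomeric side of the CDKN2A start and 4.92 Mb on the other. It contained no unsequenced bases of the assembly. It began just inside FOCAD, whose start is marked by peaks of 159 and 232 bp, and ended at a peak of 177 bp at the start of CAAP1. FOCAD and CAAP1 were thus the nearest coding genes with a peak at the start on each side, and most of the FOCAD gene lay within the span.

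The span held the canonical starts of 25 coding genes, and with FOCAD and CAAP1 it overlapped 27. Of these 25, 16 were type I interferon genes (IFNB1, IFNW1, IFNE and the IFNA cluster), none with a CpG-rich start. The 7 CpG-rich starts were those of KLHL9, MTAP, CDKN2A, CDKN2B, DMRTA1, the neuronal RNA-binding protein gene ELAVL2, and TUSC1; the other 2 coding genes were HACD4 and IZUMO3. The span also overlapped 25 long non-coding RNA genes and 6 miRNA genes. Since the span was chosen for having no peak, the absence of peaks at these starts is part of its definition, and what was measured is that it takes in 7 starts of a class of which 65% carry one, or 3 at a ratio of 0.7.

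**Figure D3:**
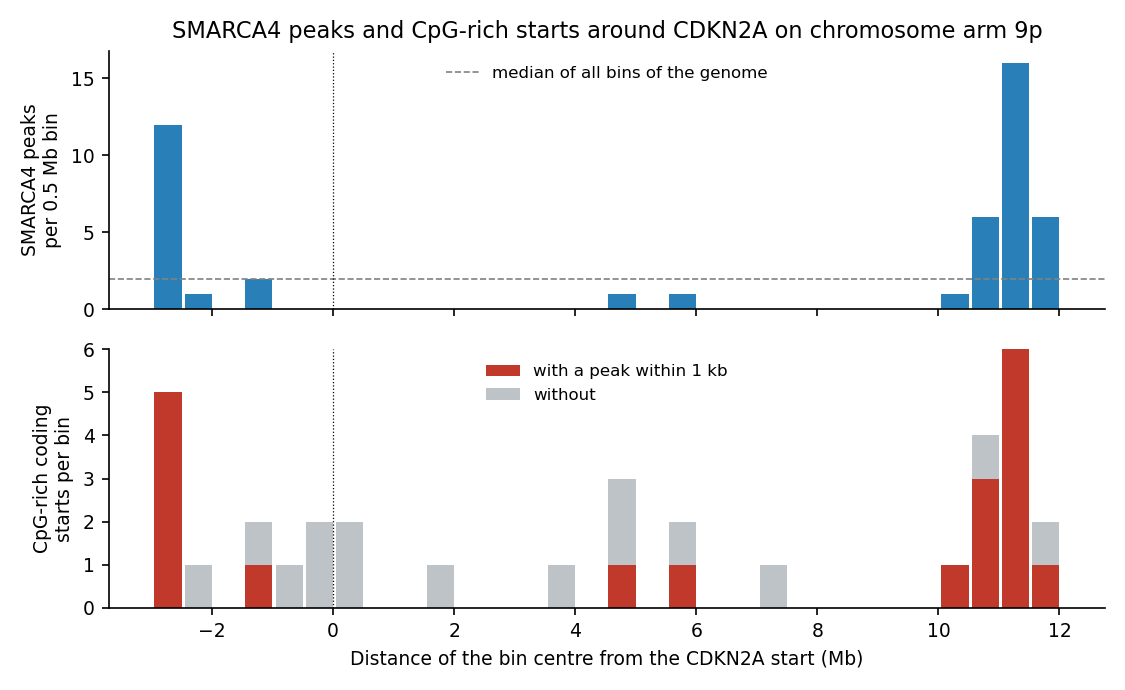
Upper panel, SMARCA4 peaks per 0.5 Mb bin of the 9p window by distance in Mb from the CDKN2A start, with the median of all bins of the genome, 2, as a dashed line; lower panel, CpG-rich coding starts per bin, with (red) and without (grey) a peak within 1 kb. Peaks reach 16 per bin at the right and 12 at the left, and 1 peak each is left in 2 bins between 4 and 6 Mb.

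Beyond CAAP1, peaks remained scarce. The 2 peaks at CAAP1 (177 bp) and C9orf72 (145 bp), both over a coding start and both under 200 bp, were the only ones in 11.7 Mb (chr9:20684504-32384592), up to the peak of 125 bp at the start of ACO1. Within this stretch peak-free runs of 0.681 and 4.81 Mb followed the first one. The stretch was chosen as the run that holds CDKN2A and at most 2 peaks, so its low density is part of its definition. The whole window, 15 Mb long, had 3.07 peaks per Mb, against 8.78 on chromosome 9 and 9.97 over the genome, and the plot of peaks by bin shows where its peaks lie.

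Over the whole window 19 of 34 CpG-rich starts had a peak within 1 kb (55.9%, 95% Wilson interval 39.5 to 71.1), against 48.2% (41 of 85) on 9p outside it and 68.5% (243 of 355) on 9q. Against the class as a whole the direction depended on the limit, since the window was below the 65% of all coding genes at a ratio of 0.6 and, with 71.4%, above their 67.7% at 0.7. The 11.7 Mb stretch took in 13 of the 34, and the 2 peaks that its choice allowed stood at 2 of these starts. No CpG-rich start of 5 within 1 Mb of the CDKN2A start had a peak, 1 of 8 within 2 Mb, that of FOCAD, and 7 of 20 within 5 Mb. The peak-free span reached 1.29 and 4.92 Mb from that start, so the value within 1 Mb follows from its choice. Within 2 Mb only the CpG-rich starts of FOCAD, whose peak bounds the span, and MLLT3 lay outside it. These values are therefore no separate measure of a change with distance. The starts without a peak included PLAA, IFT74, MOB3B and LINGO2 beyond CAAP1, and, to the left of the stretch, MLLT3 and SLC24A2, which were chosen after their values were seen. The intervals cover counting error only, and neighbouring genes are not independent.

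Of the 30 bins of 0.5 Mb in the window, 21 (70%) had no peak, against 36.9% of 5450 bins of the genome. The remaining 9 bins held all 46 peaks, up to 16 in a bin. Left of the 11.7 Mb stretch lay 15 peaks (8.90 per Mb) and right of it 29 (17.95 per Mb), against 9.97 per Mb over the genome. The flanks are bounded by the chosen stretch, so their densities depend on that choice. The 46 peaks were 304.5 bp wide at the median, and 12 were under 200 bp. A GATA motif was present in 24 (52.2%, against 51.3% of all peaks), a G4 motif in 8 (17.4%, against 23.4%), an SP/KLF motif in 23 (50%, against 39.3%), an ETS motif in 6 (13%, against 3.52%) and an E2F motif in none (against 4.04%). The GATA share was thus close to that of all peaks, while the ETS share was above it on 6 peaks and with no test.

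The peak-free run was set beside all others of the genome. The one around CDKN2A was the 9th longest of 28517, which had a median of 16.6 kb; 23 runs reached 5 Mb, and the longest, on chromosome 5, had 11987588 bp. By gene content it ranked higher than by length, since of the 200 longest runs 1 held more coding starts than its 25 and 2 held more CpG-rich starts than its 7, with 6 holding as many, itself included. When a run was allowed to hold 2 peaks, the 11.7 Mb stretch was the third longest, after 16.0 Mb on the X chromosome and 12.4 Mb on chromosome 5. Its 35 coding starts and 13 CpG-rich starts were the most among the 20 longest such runs, next to 24 and 12 on the X chromosome and 13 and 0 on chromosome 5.

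**Figure D4:**
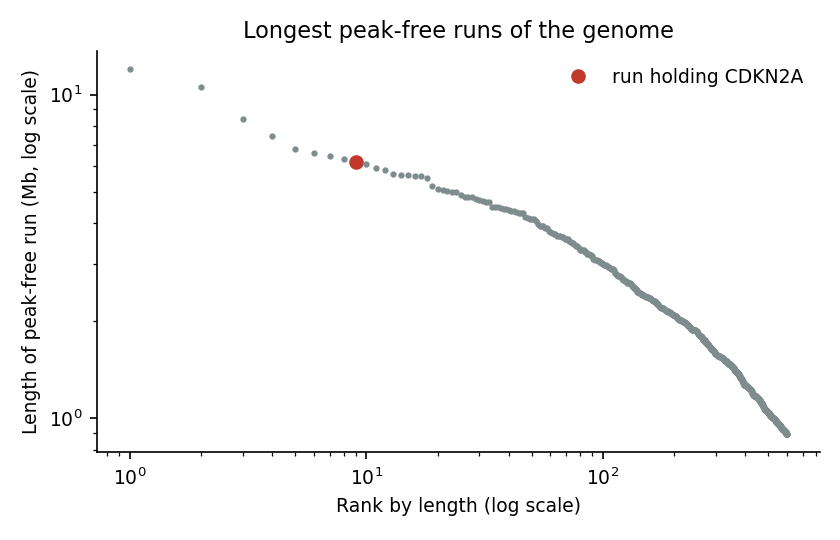
Length in Mb of the longest peak-free runs of the genome by rank, both on log scales; each point is a run, and the red point is the run of 6.21 Mb that holds CDKN2A. It stands 9th and lies on the curve formed by the other runs.

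Reads could be placed in the span as well as in the rest of the window. Of reads of 75 bases cut from the hg19 sequence, 95.6% mapped back to their own place alone in the peak-free span, 95.6% in the remainder of the 11.7 Mb stretch and 93.3% in the rest of the window. The share was 94.2% from IFNB1 to IFNE, a stretch that holds the interferon cluster and KLHL9, and 94.3% from MTAP to CDKN2B. Around the 13 CpG-rich starts of the stretch it was lowest at CDKN2A (97.5%) and 100% at the others. Copy number was not analysed here, and from a list of peaks alone DNA that is missing from the cells and DNA that SMARCA4 does not bind cannot be told apart.

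Most other genes of the CDK and RB pathway had a SMARCA4 peak at a start. Of the 29 on the list, 24 (82.8%) had a peak within 1 kb of a coding start, against 46.8% of all coding genes. Of the 24 with CpG-rich starts 20 had one (83.3%), against 65% of their class. All 5 kinases had a peak at a start, among them CDK4 with 1 peak and CDK6 with 5 in the gene or 10 kb each side. Both pocket proteins related to RB1, RBL1 and RBL2, had a single peak, like RB1 itself, which is also the median over all coding genes.

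Of the 7 cyclins, 5 had a peak at a start. CCND3 had 14 peaks, the most of the list, and CCND2 had 2, whereas CCND1 had none, its nearest being 33982 bp from a start. CCNB1, the mitotic cyclin, had none either. The D-type cyclins, which activate the CDK4 and CDK6 that INK4 proteins block, thus ranged from 0 to 14 peaks.

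Of the 10 E2F and DP factors, 8 had a peak at a start, with 10 peaks at E2F3 and 5 at E2F1; E2F7 and TFDP1 had none. Of 5 regulators, CKS1B had 4 peaks, WEE1, the kinase that holds CDK1 inactive, had 3, and SKP2, whose protein marks p27 for degradation, and MDM2 had 2 each. CDC25A, the phosphatase that activates CDK2, was the only one of the 5 without a peak. The median number of peaks was 2 over the 29 genes, 2 over all 9 members and 1 over all coding genes. Over the 6 members outside 9p, all of which had a peak, it was 3.5. CCND1, CCNB1, E2F7, TFDP1 and CDC25A, the 5 without a peak, lie outside 9p, and 4 of them had CpG-rich starts. Why they had no peak was not tested.

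**Figure D5:**
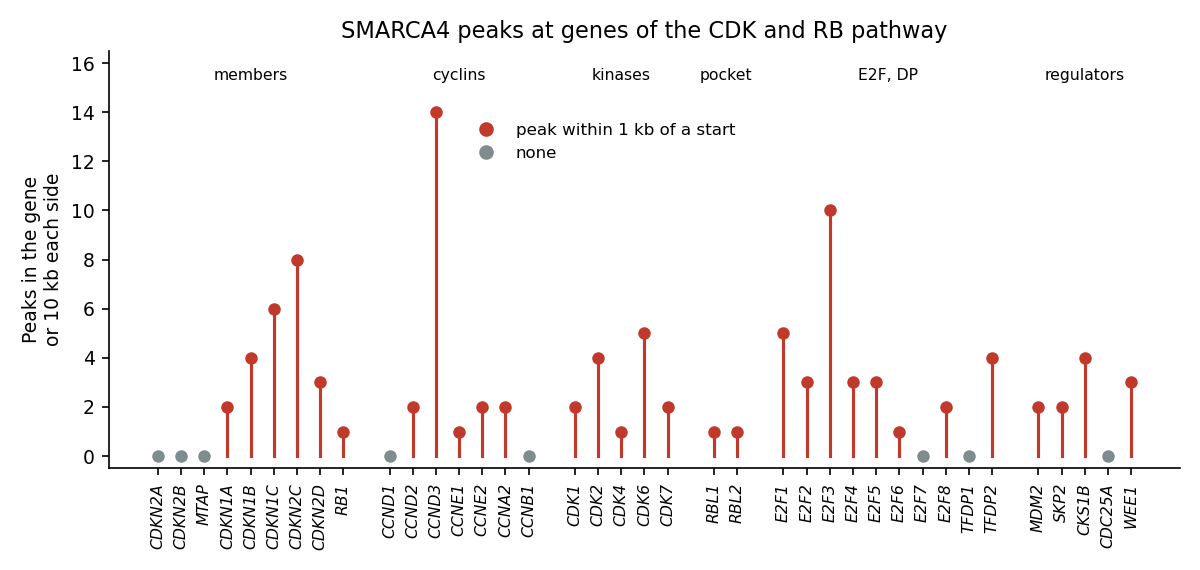
Number of SMARCA4 peaks in the gene or 10 kb each side for the 9 member genes and 29 other genes of the CDK and RB pathway, grouped by role; red marks genes with a peak within 1 kb of a coding start and grey those without. The grey points are the 3 genes on 9p and 5 of the 29 pathway genes, and CCND3 stands highest with 14 peaks.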

How the data were processed

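Before peak calling, the authors ran cutadapt against adapters, BWA with hg19 as the reference, and Picard with SAMtools against duplicates. They called peaks in each library with MACS2 at a q-value threshold of 0.05 and kept regions found in at least 2 of 3 replicates with bedtools. The deposited file has 3 columns, which hold a chromosome and the region's bounds in bp. The list gives no read numbers. The study states the depth of each library and the number of peaks called in each replicate, which were not used here. The members and lists were chosen with earlier results of these data known, and no test was made.

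Peaks were compared with hg19 and GENCODE 44 in hg19 coordinates, using Python 3.11.15, numpy 2.4.6, scipy 1.17.1, pysam 0.24.0 and matplotlib 3.10.9, with positions counted from 1. Coding genes on the autosomes and the X chromosome were used. Peak-free runs were broken at assembly gaps of at least 10 kb. Reads of 75 bases, cut every 50 bases, were mapped with minimap2 2.31-r1302 and taken as unique from a mapping quality of 10 upwards. Counting of overlaps and motifs was tested on simulated data. Named genes were the members, the coding genes and CDKN2B-AS1 overlapping the span, the nearest coding gene with a start peak on each side, and the pathway list, besides the marker genes. Neighbours of member peaks and other genes of the 9p window were named after their values were seen. Alternatives were peaks of at least 200 bp, merged peaks, other margins, start distances, transcripts, CpG classes, bins, motif windows, G4 loops and mapping qualities. The signal tracks and the endogenous G4 sites were not analysed here. Some genes and motifs of the lists are not reported here, and the counts leave them out.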

Additional observations from a re-analysis of the deposited data

How the results depend on the processing

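Of 83 alternative values of 30 results, 55 stayed within 1.5 times the first value (counts and lengths) or inside its 95% Wilson interval (shares), and 28 moved, 12 of them for single genes or motifs. Shares of few starts have wide intervals and those of many reads or genes narrow ones. The 6 members outside 9p had a peak at a start under every alternative run. The 3 on 9p had no peak under any, but their nearest peak was at least 1118132 bp from the gene. No alternative could thus have added one, and their values count among the 55 that stayed. So do those of the ETS and CTCF motifs, which no member peak held and which could not appear in its centre. Peaks at the member genes numbered 13 with no margin and 39 with 50 kb each side, against 24. The share of all coding genes with a peak at a start was 43.9% with peaks of at least 200 bp, 44.1% within 200 bp, 51.7% within 5 kb and 44.3% with canonical transcripts, against 46.8%. The span around CDKN2A, 6.21 Mb, became 11.8 Mb with peaks of at least 200 bp, 11.7 Mb when allowed to hold 2 peaks and 11.8 Mb when allowed to hold 3, the last added after seeing the data. With a CpG class at 0.7, 71.4% of CpG-rich starts of the window had a peak, against 55.9%, which put the window above its class (67.7%) and not below it (65% at 0.6), and 3 such starts lay in the span, against 7. The share in the 11.7 Mb stretch, which was chosen for holding 2 peaks, was then 28.6%, against 15.4%, and 6 members were in the class, against 9, with CDKN2B alone of the 3 on 9p. The distances from CDKN2A were also chosen after seeing the data, with 0 CpG-rich starts with a peak within 1 Mb and 7 within 5 Mb, against 1 within 2 Mb, as was the limit of 60% GC. The 0 within 1 Mb follows from the choice of the span, which takes in all of that distance. In the central 200 bp, 4 member peaks held a G4 motif, against 13, a share of 16.7%, against 13% of all peaks. Uniquely mapping reads of the span were 97.1% at a mapping quality of at least 1 and 93.6% at 30, against 95.6%.

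No paired analysis was possible because only the merged list was used, which holds no separate replicate values, and for the same reason none was left out in turn. Peak strength, read depth and copy number bear on which regions reach such a list, and their part in these counts was not tested.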
